A study of Homo sapiens with 21 samples.

Results

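The BCL2 family decides whether the outer mitochondrial membrane of a cell is opened during apoptosis. Pro-survival proteins (BCL2, BCL2L1 as BCL-XL, MCL1 and BCL2A1) bind and hold back the effectors such as BAX, which form the pores, while BH3-only proteins (BCL2L11 or BIM, BBC3 or PUMA, PMAIP1 or NOXA, BMF and BIK) bind the pro-survival proteins or act on the effectors. In mammary epithelial cells BIM and BMF are known for their part in the death of cells that lose growth factor or matrix contact, and growth factor signalling through ERK is known to restrain BIM.

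The transcripts of these 10 genes, 4 pro-survival and 6 pro-death, were followed through an EGF time course. They belong to the BCL2 family but do not cover all of it, and were chosen with earlier results of these data known. Their probesets were those that the platform annotation named with only 1 of the 10 symbols. This gave 139 of the 354600 probesets with a single gene symbol. Of the 139, 114 passed the filter on low signal, as did 261183 of all single-symbol probesets. As genes 9 of the 10 members could be tested, among 16614 genes in all, because BCL2A1 had 2 kept probesets where 3 were required.

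The cells were MCF10A, an established human breast epithelial line that forms no tumours and needs added EGF to grow. They had been plated without EGF for 24 h, then starved for 24 h in 1% horse serum, and were given 20 ng/ml EGF. Arrays were made from untreated cells (0 min) and from cells after 20, 40, 60, 120, 240 and 480 min of EGF, with 3 biological replicates per time and 21 arrays in all. All groups were thus starved cells of a single line, and with no untreated arrays at the later times EGF, handling and time in culture cannot be told apart. All changes against 0 min share the same 3 untreated arrays.

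Values are log2(intensity + 16), and a gene's value is the median over its kept probesets. Changes are differences on this scale with limma's standard error (SE) between 3 and 3 arrays, and they understate the change of dim genes. Adjusted p is limma's, after Benjamini-Hochberg correction over all genes (or all probesets) of a contrast, and a gene was called where it was under 0.05. Array medians lay between 20.44 and 20.56 intensity units, and replicate arrays correlated across genes at 0.944 to 0.988. The median change over all genes lay between 0.02 and 0.05 at each time. The median log2 signal of named probesets less that of unnamed ones, used below as an array index, averaged 1.24 ± 0.02 (SD, n = 3) in untreated cells and 1.27 to 1.32 after EGF. Of the probesets of basal epithelial markers 95.5% were kept, against 25.6% for lymphocyte and 62.9% for fibroblast markers. For epithelial and luminal markers the shares were 87.2% and 75.2%. The fibroblast markers differed among themselves: LUM had 0 of 10 probesets kept, but COL1A1 had 57 of 61 and COL3A1 40 of 66. The mean level of the fibroblast list was 5.89 to 6.02 at 0 min and 5.81 to 5.89 at 480 min. The part of the array index or of other cells in the results was not tested. In such bulk samples fewer cells of a type and less RNA per cell cannot be told apart.

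MCL1 transcripts rose within 20 min of EGF and stayed higher through 480 min. BCL2L1 was called higher at the same 6 times, although its calls at 20 and 40 min were lost under several alternatives. BCL2L11 fell from 60 min on, to about a 3.06-fold lower value at 480 min, although its call at 60 min was lost under some alternatives. PMAIP1, a BH3-only gene, rose as early as MCL1 and then came down again between 60 and 120 min. BCL2, BBC3, BMF and BIK were not called against 0 min at any time, and BAX was called only between EGF times. The F-test over all 6 contrasts called 5 of the 9 members tested (BCL2L1, MCL1, BCL2L11, PMAIP1 and BAX), and it called 27.5% of all genes.

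At 20 min 3 members were called, all higher (BCL2L1, MCL1 and PMAIP1), where 0.897% of all genes were called higher and 0.0843% lower. The same 3 were called higher at 40 min, beside 1.82% of all genes higher and 0.415% lower. At 60 min BCL2L11 joined as a lower gene, against a background of 4.82% higher and 0.975% lower. At 120 min the 3 higher members and BCL2L11 stood beside 11.2% of genes higher and 3.21% lower. When each array was centred on its median, which moved the median change of all genes to -0.03 at 60 min and -0.05 at 120 min, the members' split of higher and lower calls went from 3 and 1 to 3 and 2 at 60 min and to 3 and 3 at 120 min. At 240 min MCL1 and BCL2L1 were called higher and BCL2L11 lower, with 13.5% of genes higher and 6.21% lower. The same held at 480 min, with 15.5% higher and 7.11% lower.

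**Figure D1:**
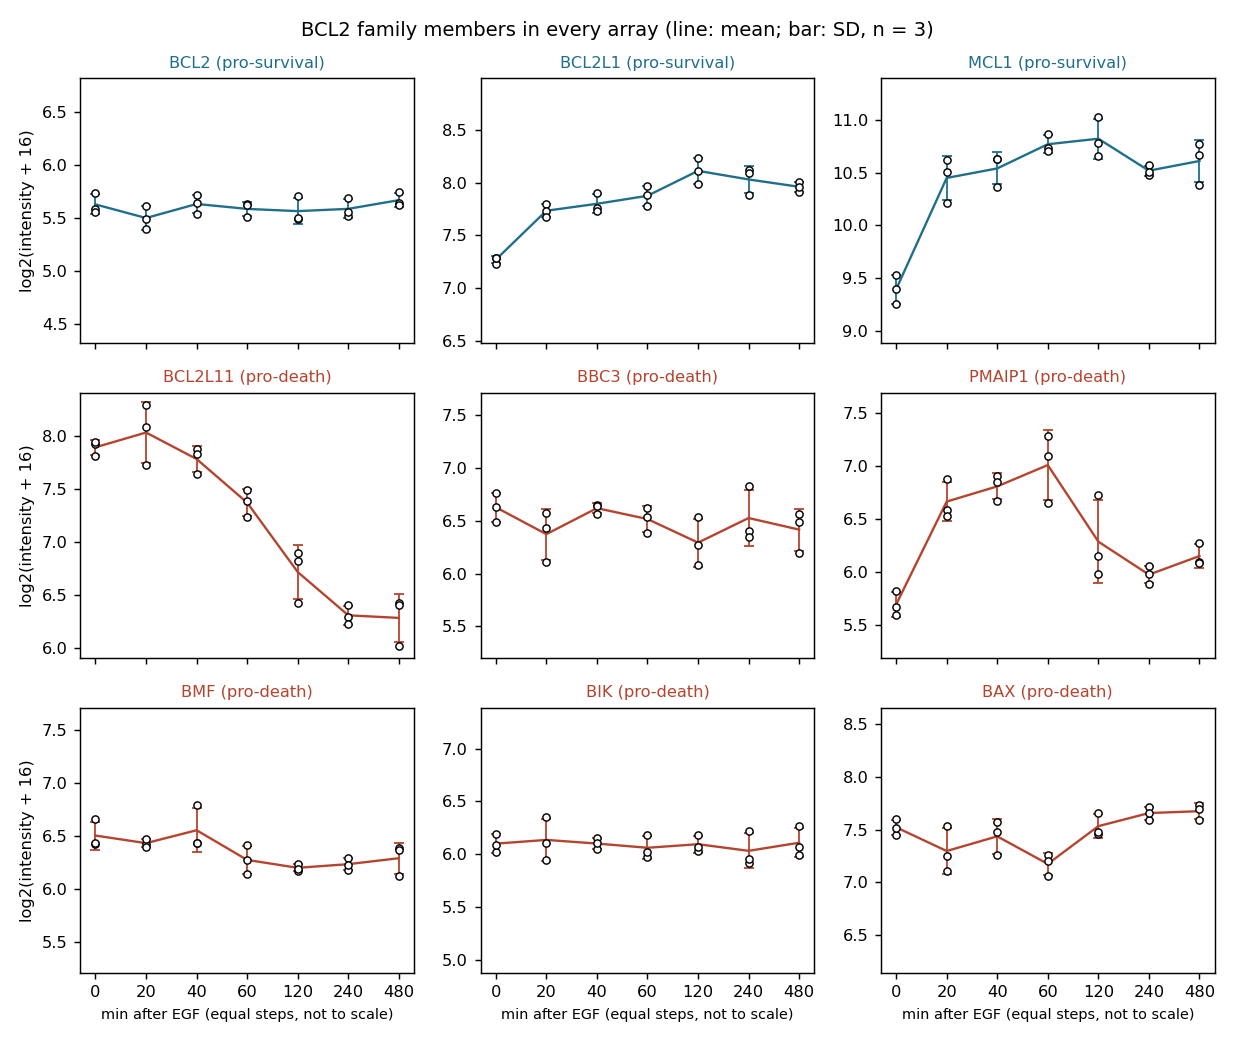
The 9 members tested as genes in every array: log2(intensity + 16) against min after EGF in equal steps, with points for arrays, a line for the mean and bars for the SD (n = 3). All panels span the same number of log2 units; MCL1 and BCL2L1 lie above their 0 min arrays at every EGF time, BCL2L11 lies below them from 60 min, and PMAIP1 is highest at 60 min.

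MCL1, a short-lived pro-survival protein that binds BIM and NOXA among others, had the largest rise of the pro-survival members. Its 3 arrays read 9.26, 9.54 and 9.40 at 0 min and 10.51, 10.62 and 10.22 at 20 min. They read 10.63, 10.36 and 10.62 at 40 min, 10.73, 10.70 and 10.87 at 60 min and 10.65, 11.02 and 10.78 at 120 min. They read 10.57, 10.48 and 10.50 at 240 min and 10.67, 10.38 and 10.77 at 480 min. Every one of the 18 EGF arrays was above every untreated array. The change was 1.05 ± 0.13 at 20 min (adjusted p = 3.27e-05), or 2.07-fold. It was 1.42 ± 0.13 at 120 min (adjusted p = 6.83e-08), or 2.68-fold, and 1.21 ± 0.13 at 480 min (adjusted p = 5.07e-07). The change at 20 min was 74% of that at 120 min, and no difference between 2 EGF times was called for MCL1. MCL1 was called at all 6 times under every alternative and without any single array.

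BCL2L1 encodes BCL-XL, the other widely expressed guardian of the mitochondria in epithelial cells, and its rise was smaller and more gradual. The arrays read 7.23, 7.29 and 7.29 at 0 min, 7.79, 7.73 and 7.68 at 20 min and 7.90, 7.76 and 7.73 at 40 min. They read 7.96, 7.88 and 7.78 at 60 min, 7.99, 8.11 and 8.23 at 120 min, 7.88, 8.12 and 8.09 at 240 min and 8.01, 7.91 and 7.95 at 480 min. The EGF arrays did not overlap the untreated ones at any time. The change was 0.46 ± 0.10 at 20 min (adjusted p = 0.0175), 0.60 ± 0.10 at 60 min (adjusted p = 0.00029), 0.84 ± 0.10 at 120 min (adjusted p = 2.23e-06) and 0.69 ± 0.10 at 480 min (adjusted p = 1.98e-05). The value at 120 min was 1.79-fold that at 0 min. BCL2L1 was also 0.38 ± 0.10 higher at 120 min than at 20 min (adjusted p = 0.0141), a contrast in which 6.18% of all genes were called higher, and the 20 min change was 55.1% of the largest one. At 20 min the call of BCL2L1 was lost when probesets were averaged instead of taking the median (0.18, adjusted p = 0.205) or the array index was a covariate (0.38, adjusted p = 0.0658), with no filter (0.34, adjusted p = 0.0709) or a filter at the 75th percentile (0.26, adjusted p = 0.317), and also without replicate 1 at 0 min (adjusted p = 0.0867), replicate 1 at 20 min (adjusted p = 0.105) or replicate 2 at 20 min (adjusted p = 0.0763). The call at 40 min was lost with the mean over probesets (0.31, adjusted p = 0.0694), with no filter (0.32, adjusted p = 0.0679) and with the filter at the 75th percentile (0.48, adjusted p = 0.108). Read singly, 0 of the 14 kept BCL2L1 probesets were called by limma at 20 min, where 0.445% of all probesets were called higher. At that time 4 had an unadjusted p under 0.05, and the median change was 0.11. At 120 and 480 min 7 and 6 of the 14 were called higher, beside 7.38% and 10.5% of all probesets. Their median change was then 0.57 and 0.45, below the 0.84 and 0.69 of the gene value.

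BCL2, the founding pro-survival member, gave 5.74, 5.59 and 5.56 at 0 min and 5.64, 5.75 and 5.63 at 480 min, and its arrays at the times between lay from 5.40 to 5.72. EGF and untreated arrays overlapped at every time. The change at 480 min was 0.04 ± 0.10 (adjusted p = 0.829), with a 95% interval from -0.17 to 0.25, so a change as large as that of BCL2L1 at that time lay outside it.

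BCL2A1, a pro-survival gene best known from blood cells, was close to the filter on low signal. The deposited intensity of its 2 kept probesets ran from 15.0 to 40.0 (median 25.6) and from 7.60 to 45.6 (median 20.997) over the 21 arrays, and its other 4 probesets ran from 1.57 to 17.6. The changes of the kept 2 lay between 0.06 and 0.40 and neither was called at any time, with 0 at an unadjusted p under 0.05 in limma.

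BCL2L11 encodes BIM, a BH3-only protein that binds all pro-survival members, and it was the only member called lower against 0 min. Its arrays read 7.82, 7.93 and 7.95 at 0 min, 8.09, 8.30 and 7.73 at 20 min and 7.88, 7.83 and 7.64 at 40 min. They read 7.24, 7.39 and 7.49 at 60 min and 6.43, 6.83 and 6.90 at 120 min. They read 6.30, 6.40 and 6.23 at 240 min and 6.43, 6.02 and 6.41 at 480 min. The arrays overlapped the untreated ones at 20 and 40 min and lay below all 3 of them from 60 min on. The change was 0.14 ± 0.15 at 20 min (adjusted p = 0.637), -0.52 ± 0.15 at 60 min (adjusted p = 0.0365), -1.18 ± 0.15 at 120 min (adjusted p = 5.62e-06) and -1.61 ± 0.15 at 480 min (adjusted p = 5.01e-08). BCL2L11 was 2.26-fold lower at 120 min and 3.06-fold lower at 480 min. The fall at 240 min was already 98.5% of that at 480 min, and between 20 and 480 min BCL2L11 changed by -1.75 ± 0.15 (adjusted p = 1.58e-08), a contrast with 10.5% of all genes lower. The 480 min value differed from that of 240 min by -0.02 ± 0.15 (adjusted p = 0.981). The call at 60 min did not survive leaving out any single array of 0 or 60 min (adjusted p from 0.0648 to 0.148), whereas the calls from 120 min held under every alternative and without any single array.

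The 250 bases before the BCL2L11 start are shown because this member fell the most, and FOXO factors are known activators of BIM. The sequence is RefSeq's for GRCh38.p14, chr2:111120664-111120913 on the + strand, read 5′ to 3′, with a GC content of 76.8%. Capitals mark a match to the FOXO site GTAAACA, 223 to 217 bases before the start, and 3 matches to the SP1 site GGGCGG.
BCL2L11: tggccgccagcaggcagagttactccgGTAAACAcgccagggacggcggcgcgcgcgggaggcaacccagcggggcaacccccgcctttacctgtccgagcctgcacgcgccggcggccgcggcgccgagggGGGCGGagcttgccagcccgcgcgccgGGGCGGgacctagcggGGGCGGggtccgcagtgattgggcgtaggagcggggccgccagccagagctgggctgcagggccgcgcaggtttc
Searched on both strands, GTAAACA was in 2.98% and GGGCGG in 42.6% of 35116 windows of this length before RefSeq starts. Such a match is only a run of letters, and binding was not measured here.

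PMAIP1 encodes NOXA, a BH3-only protein that binds MCL1 in particular. Its arrays read 5.82, 5.59 and 5.67 at 0 min, 6.58, 6.88 and 6.53 at 20 min and 6.90, 6.67 and 6.85 at 40 min. They read 6.65, 7.10 and 7.29 at 60 min and 5.98, 6.15 and 6.73 at 120 min. They read 5.89, 5.98 and 6.05 at 240 min and 6.09, 6.08 and 6.28 at 480 min. All EGF arrays were above all untreated ones, and those of 240 and 480 min were below all arrays of 20 to 60 min. The change was 0.97 ± 0.17 at 20 min (adjusted p = 0.00213), 1.32 ± 0.17 at 60 min (adjusted p = 1.29e-05), 0.59 ± 0.17 at 120 min (adjusted p = 0.0184), 0.28 ± 0.17 at 240 min (adjusted p = 0.268) and 0.46 ± 0.17 at 480 min (adjusted p = 0.0523). At its peak PMAIP1 was 2.49-fold above 0 min. From 60 to 240 min it changed by -1.04 ± 0.17 (adjusted p = 0.000191), where 4.72% of all genes were called lower between these times. The call at 120 min rested on its highest array: without replicate 3 at 120 min the change was 0.37 (adjusted p = 0.151), and without replicate 2 at 0 min the adjusted p was 0.0695.

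The window before the PMAIP1 start, chr18:59899746-59899995 on the + strand of GRCh38.p14, is given for comparison with that of BCL2L11, since these are the BH3-only members that moved. Its GC content was 72.8%. Capitals mark the SP1 letters, GGGCGG on the + strand at 3 positions and CCGCCC, the same site on the other strand, 146 to 141 bases before the start.
PMAIP1: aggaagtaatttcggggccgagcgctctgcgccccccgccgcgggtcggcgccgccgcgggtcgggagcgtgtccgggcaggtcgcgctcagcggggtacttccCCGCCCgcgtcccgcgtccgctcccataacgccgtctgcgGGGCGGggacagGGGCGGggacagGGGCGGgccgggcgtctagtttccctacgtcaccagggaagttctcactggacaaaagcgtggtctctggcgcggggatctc
The FOXO letters were not in this window. Other motifs searched included AP-1 (TGACTCA, in 4.2% of windows), the full CRE (TGACGTCA, 1.65%) and the CRE without its last base (TGACGTC, 3.12%, which holds every full CRE), EGR1 (GCGTGGGCG, 0.72%), the ETS core (CCGGAAGT, 3.42%), the E-box (CACGTG, 6.34%), E2F (TTTCCCGC, 1.39%) and the CArG box (1.16%). The RefSeq table gave windows for 8 of the 10 members, all but MCL1 and BIK, and they had 10 windows in all. The BAX window held the E-box letters at 4 positions, 138 to 133, 93 to 88, 45 to 40 and 14 to 9 bases before the start, and 1 SP1 site. The BBC3 window held 1 AP-1 site and 1 E-box, the BCL2 window a CArG box, and 1 of the 2 BMF windows an SP1 site. Neither BCL2L1 window nor that of BCL2A1 held any of the letters searched.

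BBC3 encodes PUMA, which like BIM binds all pro-survival members. Its arrays read 6.76, 6.63 and 6.49 at 0 min and 6.08, 6.53 and 6.27 at 120 min, the time with the largest change, and they overlapped. That change was -0.33 ± 0.15 (adjusted p = 0.145), and at 480 min it was -0.21 ± 0.15 (adjusted p = 0.353). BBC3 was called lower at 120 min after median centring (-0.42, adjusted p = 0.0428) and with the array index as a covariate (-0.47, adjusted p = 0.0387).

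BIK, a BH3-only protein of the endoplasmic reticulum, read 6.02, 6.20 and 6.09 at 0 min and 6.07, 6.26 and 5.997 at 480 min. Its changes lay between -0.07 and 0.04 with an SE of 0.11, and adjusted p lay between 0.747 and 0.999. The 95% interval at 480 min ran from -0.23 to 0.25.

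BMF, a BH3-only protein that is tethered to the actin cytoskeleton in attached cells, read 6.65, 6.42 and 6.43 at 0 min, 6.41, 6.27 and 6.14 at 60 min and 6.24, 6.17 and 6.19 at 120 min. It read 6.18, 6.29 and 6.23 at 240 min and 6.38, 6.36 and 6.12 at 480 min. From 60 min on all 12 arrays were below the untreated ones, but the change was small. It was -0.30 ± 0.11 at 120 min (adjusted p = 0.0755) and -0.21 ± 0.11 at 480 min (adjusted p = 0.193). With the mean over probesets in place of the median BMF was called lower at 120 min (-0.32, adjusted p = 0.00792), 240 min (-0.32, adjusted p = 0.00529) and 480 min (-0.27, adjusted p = 0.0156).

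BAX, the pore-forming effector among the members, had its lowest gene value at 60 min and its highest at 480 min. Its arrays read 7.45, 7.52 and 7.60 at 0 min, 7.11, 7.54 and 7.25 at 20 min and 7.26, 7.58 and 7.48 at 40 min. They read 7.26, 7.21 and 7.06 at 60 min, 7.46, 7.48 and 7.66 at 120 min, 7.71, 7.59 and 7.66 at 240 min and 7.73, 7.59 and 7.70 at 480 min. All 3 arrays of 60 min were below the untreated ones, while those of 480 min overlapped them. Neither the change at 60 min (-0.35 ± 0.11, adjusted p = 0.0804) nor that at 480 min (0.15 ± 0.11, adjusted p = 0.392) was called, though the former was after median centring (-0.41, adjusted p = 0.0348). The 480 min value was 0.50 ± 0.11 above that of 60 min (adjusted p = 0.00405), or 1.41-fold, in a contrast where 7.47% of all genes were called higher.

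**Figure D2:**
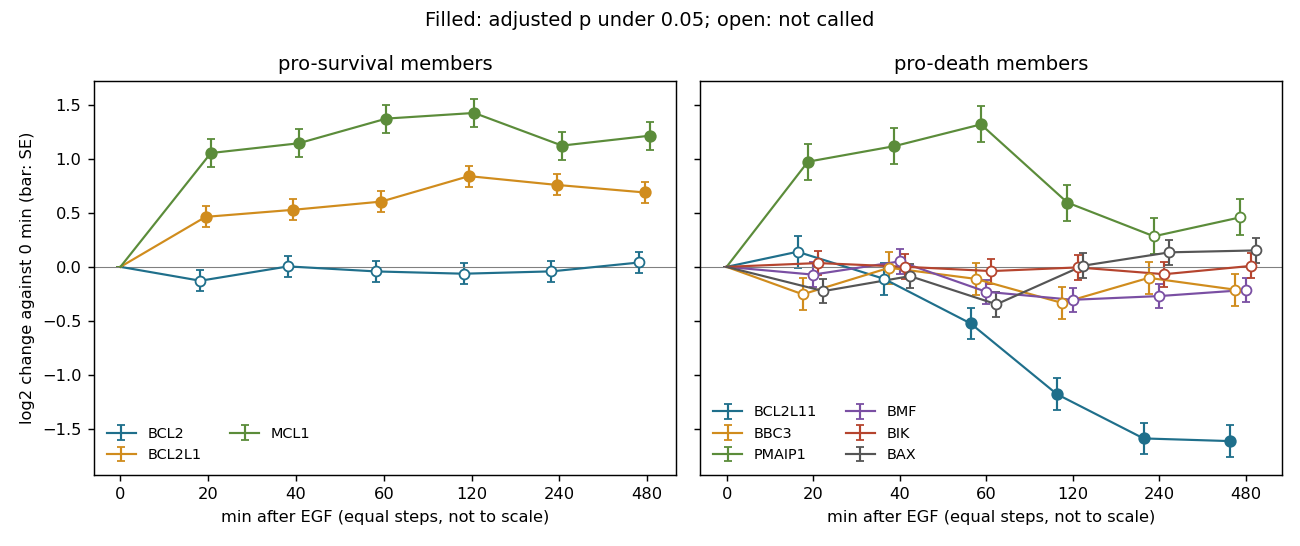
Change against 0 min of the pro-survival members (left) and the pro-death members (right), as log2 change with SE bars against min after EGF in equal steps; filled points are called (adjusted p under 0.05) and open points are not. MCL1 and BCL2L1 are filled at all 6 times, BCL2L11 from 60 min, and PMAIP1 from 20 to 120 min.

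Read by side, the 3 pro-survival members tested had a median change of 0.46 at 20 min, 0.84 at 120 min and 0.69 at 480 min, and the 6 pro-death members one of -0.02, -0.16 and -0.10. The medians hide 2 unlike patterns on the pro-death side, since PMAIP1 rose while BCL2L11 fell. They also hold for these members only, not for the whole family. The pro-death genes BAK1, BOK and BID, which are not members, were called higher at 480 min (0.76, 0.50 and 0.41). The further pro-death genes BAD and HRK and pro-survival genes BCL2L2 and BCL2L10 were not called. The change of MCL1 exceeded that of BCL2L11 by 0.91 at 20 min, 1.89 at 60 min, 2.60 at 120 min and 2.83 at 480 min, differences of changes that carry no test here. The change of MCL1 exceeded that of PMAIP1 by 0.08 at 20 min and 0.05 at 60 min, and by 0.83 at 120 min and 0.75 at 480 min. The gaps at 20 and 60 min were smaller than the SE of either change (0.13 and 0.17). Over the alternatives and refits PMAIP1 reached up to 1.24 at 20 min and 1.64 at 60 min, and MCL1 up to 1.17 and 1.44. Which of them rose more at these times thus depended on the setting.

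Between successive EGF times, members were called in 1 interval. From 60 to 120 min 2 members were called, both lower, where 2.18% of all genes were called higher and 1.3% lower. BCL2L11 changed by -0.66 ± 0.15 (adjusted p = 0.0105) and PMAIP1 by -0.72 ± 0.17 (adjusted p = 0.0136) in that hour. Without replicate 3 at 60 min or replicate 1 at 120 min neither call remained, and without replicate 2 at 60 min or replicate 2 at 120 min that of BCL2L11 alone remained. No member was called from 20 to 40 min, from 40 to 60 min, from 120 to 240 min or from 240 to 480 min, where limma called 0.572%, 0.229%, 1.54% and 1.47% of all genes. At an unadjusted p under 0.05 these intervals gave 0, 3, 2 and 0 members. BCL2L11 changed by -0.41 both from 40 to 60 min and from 120 to 240 min, with 95% intervals that excluded 0. Under an alternative it was called from 40 to 60 min (array index as a covariate, adjusted p = 0.04), and PMAIP1 from 120 to 240 min (filter at the 75th percentile, adjusted p = 0.037).

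The array measures single exons or parts of them, so each member can also be read probeset by probeset. The F-test called 51 of the 114 kept member probesets, against 20.1% of all kept single-symbol probesets. For BCL2L11 these were 17 of 18 and for MCL1 12 of 14, so that the gene values stood for nearly the whole set of probesets. BCL2L1 had 7 of 14, PMAIP1 6 of 8, BMF 4 of 15, BAX 3 of 16, BCL2 1 of 13, BIK 1 of 6, BBC3 0 of 8 and BCL2A1 0 of 2. For BBC3 and BCL2A1 the limma F-test also gave 0 probesets at an unadjusted p under 0.05.

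At 120 min 17 BCL2L11 probesets were lower, where 2.68% of all probesets were, with a median change of -1.02 over the 18. Probeset 2500292 was the exception. It was bright, with a mean of 11.98 at 0 min, and its changes lay between 0.04 and 0.15 (F-test adjusted p = 0.927). Likewise MCL1 had 12 probesets higher at 120 min, where 7.38% of all probesets were. The other 2 were 2434470 (mean 11.71 at 0 min, change at 480 min -0.23) and 2434471 (mean 5.09 at 0 min, change at 480 min 0.23). Of the 17 lower BCL2L11 probesets, 2500298 passed the filter through its earlier values. Its means from 120 min on, 4.71 to 5.10, were below the limit of 5.18, as was that of 2500304 at 480 min (5.15).

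The probesets of BMF differed widely among themselves. At 120 min 4 of its 15 kept probesets were lower, where 2.68% of all probesets were, and 0 were higher. The changes ran from -1.85 to 0.41. Probeset 3619242 read 6.22, 6.59 and 6.34 at 0 min, 4.22, 4.09 and 5.28 at 120 min, 4.52, 4.31 and 4.63 at 240 min and 4.38, 4.60 and 4.77 at 480 min. Its change was -1.85 ± 0.22 at 120 min (adjusted p = 1.56e-05) and -1.80 ± 0.22 at 480 min (adjusted p = 1.46e-05). Probeset 3619240 read 6.22, 6.22 and 6.12 at 0 min and 5.06, 4.62 and 5.24 at 120 min, a change of -1.21 ± 0.19 (adjusted p = 0.000372). Both passed the filter through their earlier values: their means from 120 min on, 4.49 to 4.58 and 4.97 to 5.14, were below its limit of 5.18, where signal is low. In both probesets every array from 120 min on was below every untreated array, although the gene value of BMF was not called. Probeset 3619261 was called the other way, with a change of 0.62 at 240 min (adjusted p = 0.0322), where 9.07% of all probesets were higher, and its mean at 0 min, 5.08, was below the same limit.

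Smaller departures of single probesets stood in 3 other members. BAX had 3 probesets with neighbouring numbers that were higher at 480 min, 3838083 by 0.90, 3838084 by 0.69 and 3838085 by 0.82 (adjusted p = 0.00585, 0.00296 and 0.00733), where 10.5% of all probesets were higher. Probeset 3838084 read 7.35, 7.26 and 7.14 at 0 min and 7.88, 8.003 and 7.95 at 480 min, with no overlap. Another BAX probeset was lower at that time, where 6.1% of all probesets were, and the other 12 were not called. BCL2 probeset 3811363 changed by 0.997 at 60 min (adjusted p = 0.000155, with 2.94% of all probesets higher), but it passed the filter through its EGF arrays, since its mean at 0 min was 4.77. The change of BIK probeset 3947616 was -0.59 at 480 min (adjusted p = 0.0266). It passed the filter through its other times, since its mean at 480 min, 5.15, was below the limit of 5.18.

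**Figure D3:**
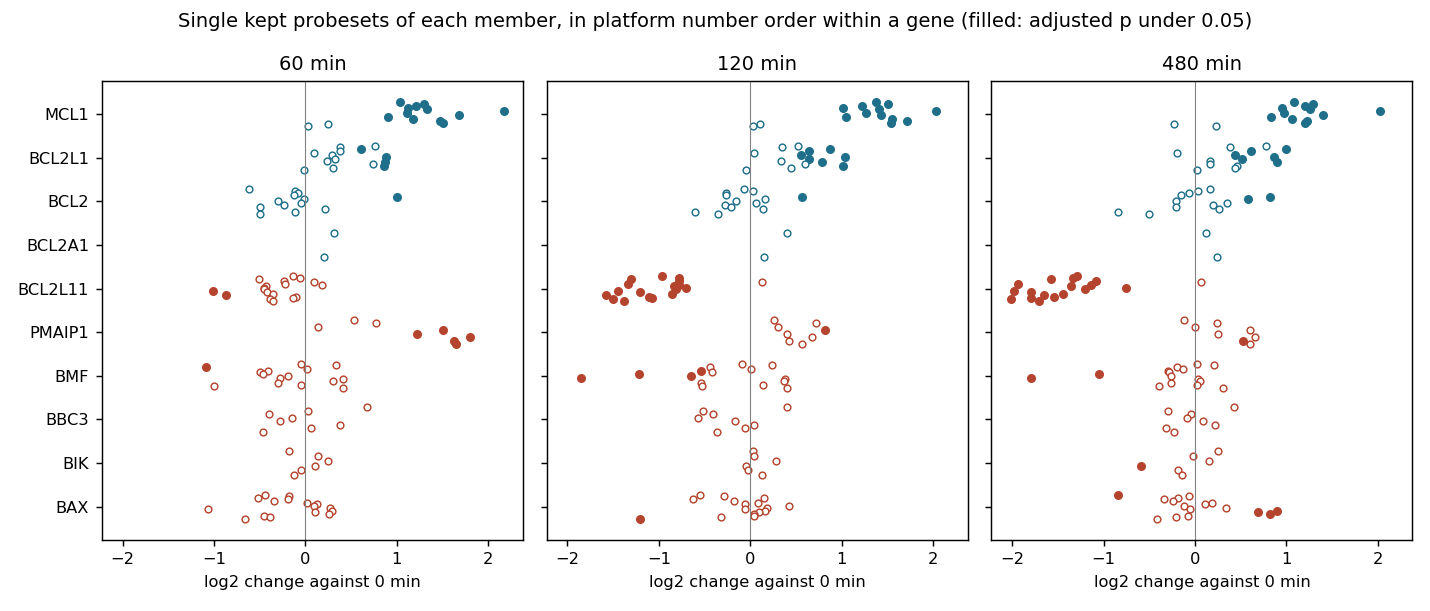
Log2 change against 0 min of every kept probeset of each member at 60, 120 and 480 min, with 1 point per probeset, spread vertically in platform number order within a gene; filled points have an adjusted p under 0.05. At 120 min 17 of 18 BCL2L11 points and 12 of 14 MCL1 points are filled, on opposite sides of 0, and BMF has 4 filled points down to -1.85.

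The array also holds probesets that the annotation leaves unnamed and whose platform numbers fall between those of a member. The number gives no position in the genome, so they are described here without a test. For MCL1 2 of 2 such probesets passed the filter. Their median read 5.69, 6.22 and 6.55 at 0 min, 9.01, 9.27 and 8.44 at 20 min and 7.91, 6.84 and 7.42 at 40 min. The mean stood 2.76 above 0 min at 20 min, 1.24 above it at 40 min and 1.13 above it at 480 min, whereas the named MCL1 probesets stood at 1.05, 1.14 and 1.21. Both unnamed probesets had this early excess, with 2.98 and 2.53 at 20 min.

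For BCL2L11 9 of 15 such unnamed probesets were kept. They read 6.61, 7.06 and 6.65 at 0 min, 7.43, 7.69 and 7.002 at 20 min and 5.48, 5.33 and 5.43 at 480 min, a mean difference of 0.60 at 20 min and -1.36 at 480 min. At 20 min 2 of the 3 arrays were above all untreated ones, and at 480 min all 3 were below. For BCL2L1 22 of 28 were kept, and their mean stood 0.65 above 0 min at 40 min, with 7.09, 6.76 and 6.63 against 6.22, 6.24 and 6.08, and within 0.03 of it at 20 and 120 min. For BIK 6 of 9 were kept. The median over them in each array went from 7.07, 6.83 and 6.89 at 0 min to 6.44, 6.42 and 6.41 at 480 min, a difference of -0.50 between the means. The BIK gene value from the named probesets differed by 0.01 at 480 min. For PMAIP1 1 of 1 was kept, and it did not follow the rise of the gene value. It changed by -0.20 at 20 min and 0.02 at 60 min, where the gene value changed by 0.97 and 1.32. BCL2, BBC3, BMF and BAX also had kept ones, whose values are not given here.

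**Figure D4:**
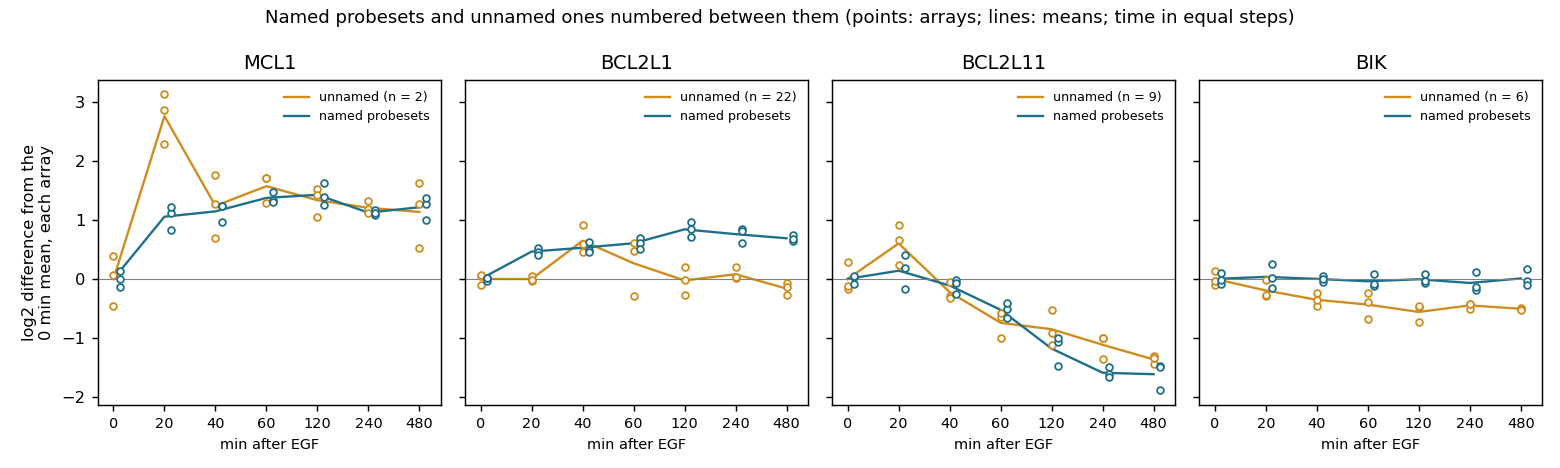
Unnamed probesets numbered between the probesets of MCL1, BCL2L1, BCL2L11 and BIK, beside the named ones: log2 difference of each array's median from the 0 min mean, against min after EGF in equal steps, with points for arrays and lines for means. The unnamed MCL1 probesets stand 2.76 above 0 min at 20 min, and those of BCL2L11 0.60 above it before they fall.

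Beyond the members, 68 other genes of the apoptosis pathway were listed and 64 could be tested. The F-test called 21 of the 64, where it called 27.5% of all genes. At 20 and 40 min limma called 0 of the 64, with 14 and 11 at an unadjusted p under 0.05, where 0.981% and 2.23% of all genes were called. At 480 min 13 of the 64 were higher and 7 lower, where 15.5% of all genes were higher and 7.11% lower. Their median change stood at 0.10, 0.08, 0.12, 0.14, 0.04 and 0.08 at the 6 times.

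Both further effectors rose, with calls from 60 min (BAK1) or 240 min (BOK) on. BAK1 stood 0.44 higher at 20 min without a call (adjusted p = 0.118), with all 3 arrays above the untreated ones. BAK1, the partner of BAX in pore formation, changed by 0.69 ± 0.13 at 60 min (adjusted p = 0.00223) and 1.11 ± 0.13 at 240 min (adjusted p = 2.49e-06), and BOK by 0.72 ± 0.11 at 240 min (adjusted p = 3.39e-05). Of the 3 further BH3-only genes BID, which links death receptors to mitochondria, changed by 0.48 ± 0.12 at 240 min (adjusted p = 0.00821), while BAD and HRK were not called by the F-test. The other pro-survival genes, BCL2L2 and BCL2L10, were not called either (adjusted p = 0.61 and 0.316). Of 8 further BCL2 homologues and BNIP genes 1 was called by the F-test, BNIP3 with 0.76 at 480 min (adjusted p = 0.00151), a mitochondrial protein known from hypoxia.

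The death receptor pathway had 8 of 12 genes called by the F-test. TNFRSF10A, a receptor of TRAIL, changed by 1.42 ± 0.13 at 120 min (adjusted p = 7.01e-08) and 1.18 at 480 min, and TRAIL itself, TNFSF10, by -0.85 ± 0.18 at 240 min (adjusted p = 0.00184). FAS changed by 0.74 at 120 min (adjusted p = 0.000676), and the adaptor FADD by 0.50 at 240 min (adjusted p = 0.00355). Of 6 caspases 1 was called, CASP9, the initiator at the apoptosome, with 0.35 at 120 min (adjusted p = 0.0286) and -0.30 at 480 min (adjusted p = 0.0498).

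Of 6 inhibitors of apoptosis 2 were called by the F-test, BIRC3 with 0.93 at 120 min (adjusted p = 0.000347) and NAIP with -0.55 at 480 min (adjusted p = 0.0148). Of 9 apoptosome and mitochondrial factors 2 were called by the F-test. They were the channel VDAC1 with 0.79 at 480 min (adjusted p = 0.00176) and AIFM1 with -0.35 at 480 min (adjusted p = 0.0449). VDAC3 was called only at single times, with 0.63 at 60 min (adjusted p = 0.0496) and 0.53 at 240 min (adjusted p = 0.0479). Of 8 regulators of the MCL1, BIM, BMF or NOXA proteins 2 were called by the F-test. They were GSK3B, a kinase that marks MCL1 for breakdown, with 0.90 at 120 min (adjusted p = 0.000993), and FBXW7, part of a ubiquitin ligase of MCL1, by the F-test only (adjusted p = 0.0122). HUWE1 was called by limma at 240 and 480 min (-0.36 at both, adjusted p = 0.0163 and 0.0148), but not by the F-test. Called only at single times were DYNLL2 (-0.38 at 120 min, adjusted p = 0.0322) and CUL5 (0.44 at 480 min, adjusted p = 0.0447). Of 8 transcription factors that act on BH3-only genes 2 were called by the F-test. They were TP73 with -0.97 at 240 min (adjusted p = 1.18e-05) and DDIT3 with -0.40 at 240 min (adjusted p = 0.0278). TP63 was called only at 120 min (0.43, adjusted p = 0.016).

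**Figure D5:**
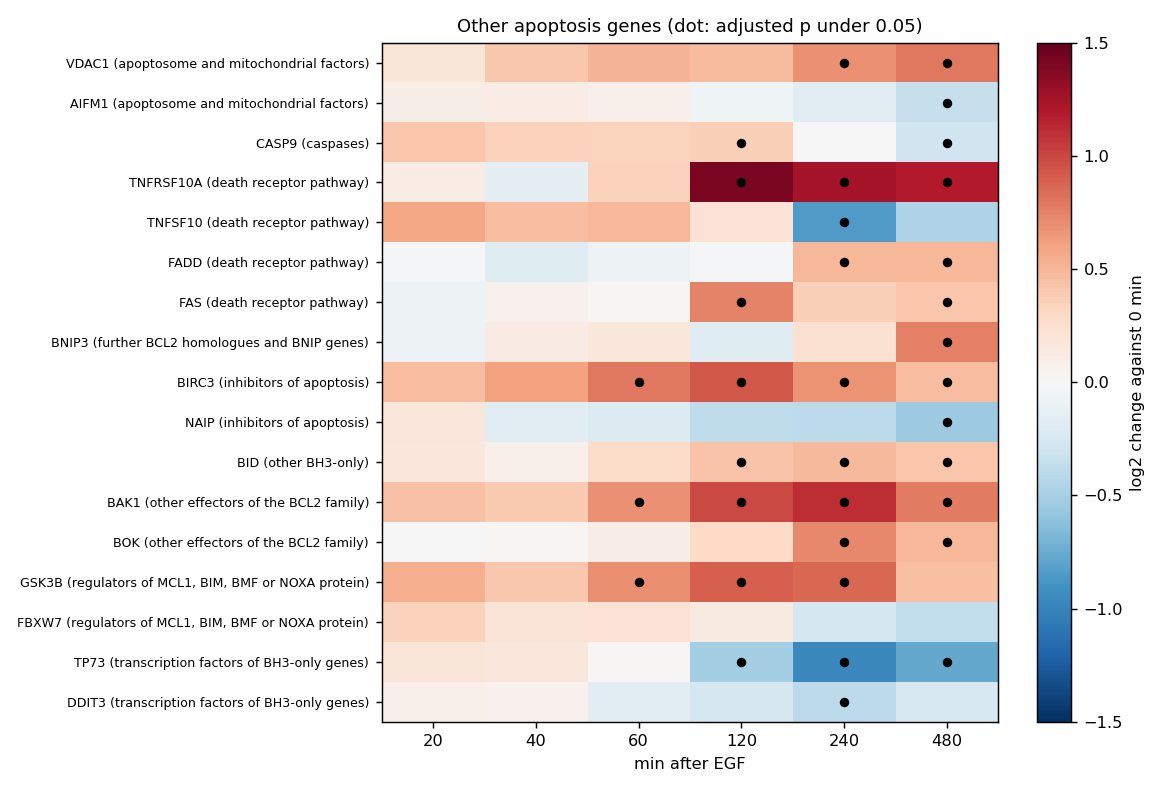
Other apoptosis genes: log2 change against 0 min (colour, from -1.5 to 1.5) by min after EGF, for up to 4 genes called by the F-test per list, with dots where adjusted p was under 0.05. No dots stand at 20 or 40 min, TNFRSF10A is highest at 120 min (1.42), and TP73 is lowest at 240 min (-0.97).

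Among the 4565 genes called by the F-test other than the members, the time courses most like each called member were sought by Pearson's r over the 7 time means, a description over 7 points that share their arrays. For BCL2L11 they were FAT2 (0.9947), S100PBP (0.9946) and FGGY (0.9938), and for MCL1 BLZF1 (0.976), ARF4 (0.9731) and ELOVL5 (0.9731). For PMAIP1 they were PTGER4 (0.9762), the transcription factor gene JUNB (0.9736) and the ERK phosphatase gene DUSP5 (0.9632). For BCL2L1 they were CLIC4 (0.9869), SDE2 (0.9842) and the phosphate transporter gene SLC20A1 (0.9835), and for BAX PTDSS2 (0.9891), LOC642131 (0.9542) and MOB3A (0.9534).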

How the data were processed

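Per the labels, RNA of MCF10A cells was cleared of ribosomal RNA, labelled with biotin and measured on 21 arrays, 3 per time. The deposited table holds 1 linear intensity per probeset and array for 1384231 probesets. PLIER and Affymetrix Expression Console 1.1 were used, per the submitters' processing notes. Sources used here do not give their settings, background correction or normalisation. The number of arrays limits the precision.

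Probesets were named through the platform annotation, which gives 1 symbol for 354600, several for 14898 and none for 1014733. Of 19497 symbols 16426 were current in the GRCh38.p14 gene table, 2950 were updated and 121 were kept as annotated. Intensities were taken as log2(intensity + 16), and probesets with a mean over all arrays at or above the median of all (5.18, or 20.2 intensity units) were kept. A gene needed 3 kept probesets. One model with a mean per time was fitted to all 21 arrays in limma 3.58.1 (R 4.3.3), with 14 residual and 7.08 prior degrees of freedom. Tests were two-sided. Tested on simulated data for 480 min against 0 min over 16614 genes, it recovered 41% of changes of 0.5 and 93% of changes of 1, and called 10 of 16414 unchanged genes.

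Member genes and lists were chosen with earlier results of these data known. Named genes were all members, up to 4 genes per pathway list with the smallest F-test adjusted p under 0.05, and the 3 genes most like each called member. Single probesets and promoter windows were singled out after their values had been seen. Fits were repeated without each array, with the replicate letter as a block, with the array index as a covariate, with the mean over probesets, without the filter or with it at the 75th percentile, with a pseudocount of 1 or 64, and after median centring or quantile normalisation. The labels do not say whether replicate letters mark a shared culture or batch, and the arrays were treated as unpaired. Deviations of same-letter arrays correlated at -0.541 to 0.565 (median -0.0111, 63 pairs), and those of other-letter arrays at -0.65 to 0.69 (median 0.00747, 126 pairs).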

Additional observations from a re-analysis of the deposited data

Results flagged for a closer look

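Of the 5 members called by the F-test, 4 also changed between EGF times, each tested by limma's contrast of those 2 times. BCL2L1 was 0.38 higher at 120 min than at 20 min (adjusted p = 0.0141). BCL2L11 differed by -1.75 between 480 and 20 min (adjusted p = 1.58e-08), and PMAIP1 by -1.04 between 240 and 60 min (adjusted p = 0.000191). BAX differed by 0.50 between 480 and 60 min (adjusted p = 0.00405), although neither time was called against 0 min. The median change of its 16 kept probesets against 0 min was -0.19 at 60 min and -0.07 at 480 min. For each member the contrast given is the largest called one of those between EGF times.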

How the results depend on the processing

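The calls of MCL1 at all 6 times, of BCL2L1 from 60 min, of BCL2L11 from 120 min and of PMAIP1 from 20 to 60 min held under all 9 alternatives and in all 21 fits without 1 array, and no direction of a called value turned. The count of members called was 1 instead of 0 from 120 to 240 min with the filter at the 75th percentile (PMAIP1, adjusted p = 0.037), 5 instead of 3 at 480 min with the mean over probesets (BMF and PMAIP1 added), and 1 instead of 0 from 40 to 60 min with the array index as covariate (BCL2L11, adjusted p = 0.04). The cause was not tested. Leaving out 1 array gave 0 to 2 members from 60 to 120 min, 2 to 3 at 20 min, 3 to 4 at 60, 120 and 480 min, 3 at 40 and 240 min, 5 by the F-test, 47 to 54 member probesets and 19 to 26 other apoptosis genes.

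Early BCL2L1 calls were lost with no filter (0.34 at 20 min and 0.32 at 40 min, adjusted p = 0.0709 and 0.0679) and with the filter at the 75th percentile (adjusted p = 0.317 and 0.108), and PMAIP1 at 120 min with the array index (0.35, adjusted p = 0.128). The BCL2L11 call at 60 min was lost with a pseudocount of 1 (-0.57, adjusted p = 0.0555) and with no filter (-0.45, adjusted p = 0.0906). Median centring called BAX at 60 min (-0.41, adjusted p = 0.0348), BBC3 at 120 min (-0.42, adjusted p = 0.0428) and BMF at 120 min (-0.39, adjusted p = 0.0411). With the replicate letter as a block, 3, 3, 4, 4, 3 and 4 members were called at the 6 times and 5 by the F-test, with PMAIP1 at 480 min added (adjusted p = 0.0439). The labels name no shared source for a letter. Of the 21 arrays 11 were closest to an array of their own letter, with 63 same-letter and 126 other-letter pairs. Pairing by letter thus remains unsettled. Signal near background limits what can be said of BCL2A1.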
